A study of Mus musculus with 12 samples.

Results

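The expression of 40 cell proliferation genes was measured in mammary tumors of MMTV-Neu mice. The genes were chosen by name as genes of DNA replication and mitosis, with earlier results of these data known. They were all found among the 54532 genes listed for 12 tumors. All 40 also passed the filter on low counts, which 15504 genes passed. MMTV-Neu mice carry the unactivated form of the Neu (ErbB2) receptor gene under the mouse mammary tumor virus promoter, which drives it in mammary epithelium, and females develop mammary tumors. Female mice with tumors of about 4 mm in diameter were randomized to 3 diets for 10 days: a control diet, MSU-42011 at 100 mg/kg of diet, or bexarotene at 100 mg/kg of diet. Both compounds are agonists of the retinoid X receptor (RXR), a nuclear receptor that pairs with other nuclear receptors on DNA. All 3 diets were powdered chow that held the same vehicle, 1 part ethanol to 3 parts purified coconut oil. Each group holds 4 tumors with different tumor numbers, so the p-values below measure the spread between tumors, and the ages of the mice were not given in the sources used here. The comparisons ask whether either RXR agonist changed the expression of the proliferation genes in established tumors, and whether the 2 agonists differed at the same dose.

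A cell that is about to divide first loads the MCM helicase on its DNA with the help of CDC6 and CDT1, copies its DNA with clamps, polymerases and a supply of deoxynucleotides, and then builds a spindle that pulls the copies apart. The genes of DNA replication are switched on largely by E2F factors in late G1 phase, and those of mitosis by the MuvB complex with MYBL2 and FOXM1 in G2 phase, which binds the cell cycle homology region in promoters. In a piece of tumor, the level of such genes depends both on how many cells divide and on how much of each transcript a dividing cell holds, and these cannot be told apart in bulk RNA. The 40 genes were grouped by role into 2 proliferation markers, 8 genes of origin licensing, 5 of the replication fork and nucleotide supply, 7 cyclins with their kinase, 3 transcription factors, 8 mitotic kinases, checkpoint and anaphase-promoting complex (APC/C) genes, and 7 of the kinetochore and spindle. The licensing and fork genes are called the 13 replication genes below, and the last 2 groups the 15 mitosis genes.

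Promoters of 8 genes are printed to show the motifs of a proliferation marker, a kinase, mitosis genes and licensing genes. RefSeq promoter windows, from 250 bases before to 50 bases after the start of the gene on GRCm38.p6, were found for 31 of the 40 genes, in 32 windows. The 200 bases before the RefSeq start are shown 5′ to 3′ on the strand of the gene. For Cdc6 all of them lie inside the gene as listed with the counts, where it starts at 98907801. Capitals mark CCAAT (the CCAAT box), TTTGAA (the core of the cell cycle homology region), TTCCCGC and TTGGCGC (both E2F-type motifs) on either strand. The first 5 are Mki67 (chr7:135716380-135716579, minus strand), Cdk1 (chr10:69352913-69353112, minus strand), Ube2c (chr2:164769729-164769928, plus strand), Cdc20 (chr4:118437344-118437543, minus strand) and Kif11 (chr19:37376182-37376381, plus strand), and the last 3 are licensing genes, Mcm5 (chr8:75109309-75109508, plus strand), Mcm6 (chr1:128359706-128359905, minus strand) and Cdc6 (chr11:98907951-98908150, plus strand).
Mki67: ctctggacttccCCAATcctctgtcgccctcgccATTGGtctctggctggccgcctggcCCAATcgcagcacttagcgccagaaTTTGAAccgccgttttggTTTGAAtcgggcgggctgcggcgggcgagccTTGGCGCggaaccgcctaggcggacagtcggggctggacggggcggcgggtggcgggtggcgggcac
Cdk1: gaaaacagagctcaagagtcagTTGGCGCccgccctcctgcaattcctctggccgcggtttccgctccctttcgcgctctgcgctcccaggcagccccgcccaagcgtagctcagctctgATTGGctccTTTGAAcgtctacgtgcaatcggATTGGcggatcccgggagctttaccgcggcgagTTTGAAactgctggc
Ube2c: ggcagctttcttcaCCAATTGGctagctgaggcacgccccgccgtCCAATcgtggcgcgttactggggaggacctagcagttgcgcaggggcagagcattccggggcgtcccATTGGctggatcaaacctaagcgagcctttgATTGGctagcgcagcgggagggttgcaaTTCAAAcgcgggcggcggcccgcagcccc
Cdc20: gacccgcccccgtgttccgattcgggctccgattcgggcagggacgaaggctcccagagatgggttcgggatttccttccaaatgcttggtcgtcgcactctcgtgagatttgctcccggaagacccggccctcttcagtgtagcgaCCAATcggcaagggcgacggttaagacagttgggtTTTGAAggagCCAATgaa
Kif11: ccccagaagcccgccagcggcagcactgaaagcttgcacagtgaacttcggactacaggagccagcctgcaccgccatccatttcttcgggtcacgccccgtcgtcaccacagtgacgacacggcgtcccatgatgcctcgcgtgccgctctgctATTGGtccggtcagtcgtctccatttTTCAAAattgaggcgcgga
Mcm5: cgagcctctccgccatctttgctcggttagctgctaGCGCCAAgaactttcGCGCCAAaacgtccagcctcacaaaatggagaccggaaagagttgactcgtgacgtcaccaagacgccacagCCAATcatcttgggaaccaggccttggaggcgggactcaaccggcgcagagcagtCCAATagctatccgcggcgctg
Mcm6: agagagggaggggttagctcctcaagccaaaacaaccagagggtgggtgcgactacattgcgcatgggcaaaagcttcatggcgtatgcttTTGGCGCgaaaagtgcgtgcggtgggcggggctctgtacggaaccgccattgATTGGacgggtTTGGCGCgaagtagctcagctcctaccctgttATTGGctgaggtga
Cdc6: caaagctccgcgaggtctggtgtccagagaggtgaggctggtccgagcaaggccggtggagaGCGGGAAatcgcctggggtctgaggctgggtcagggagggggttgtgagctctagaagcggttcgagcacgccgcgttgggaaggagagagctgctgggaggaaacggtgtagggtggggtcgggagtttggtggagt

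TTTGAA was present in 8 of 12 windows of the mitosis genes (66.7%) and in 1 of 12 windows of the replication genes (8.33%). It was present in 5878 of all 32851 windows (17.9%). Both TTTGAA and CCAAT were present in 13 of the 32 windows of the 40 genes (40.6%), against 6.95% of all windows. An E2F-type motif, TTCCCGC or TTGGCGC, was present in 8 of 12 windows of the replication genes (66.7%), 7 of 8 for the licensing genes and 1 of 4 for the fork and nucleotide genes. It was present in 2 of 4 windows of the cyclins and their kinase, in 0 of 12 windows of the mitosis genes, in 9 of 45 windows of 50 other genes of G2 phase and mitosis (20%), and in 6.81% of all windows. In the promoters above, Ube2c, Cdc20 and Kif11 hold TTTGAA or its reverse complement near the start and no E2F-type motif, Mcm5, Mcm6 and Cdc6 hold E2F-type motifs and no TTTGAA, and Mki67 and Cdk1 hold both. In the printed promoters no match overlaps one of another motif, and CCAAT overlaps its own reverse complement once, in Ube2c. The printed promoters were chosen after their motifs were seen, and a match of letters is not a binding site.

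Across the series, the total of the gene counts was 16583413 to 25925027 reads in a tumor (median 19342536), and edgeR's biological coefficient of variation within groups was 0.338. Values are given as CPM, the reads of a gene relative to all counted reads after edgeR's TMM normalization, unless FPKM is named, which also divides by gene length. The tissue label was checked against 10 markers of luminal mammary epithelium, of which Krt19 was at 0 in some tumors. The 10 summed to 5710 to 7210 CPM in control, 5400 to 6080 CPM in MSU-42011 and 3580 to 6820 CPM in bexarotene tumors. Bexarotene replicate 1 stood apart: across genes it correlated with the rest at a median of 0.922, and each of the other 11 tumors did so at 0.97 or higher, and its 10 fibroblast markers summed to 11500 CPM, against 112 to 941 CPM in the others. Of 6 adipocyte markers 1 was above 0 in all tumors, and Adipoq, Plin1, Cidec, Lep and Cfd were at 0 in some. The 6 summed to 12.2 to 91.7 CPM, with the highest sum in bexarotene replicate 1.

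The 40 genes were well expressed. Their mean levels over the 12 tumors ran from 2.76 FPKM for Cdc6, which loads the MCM helicase, to 161 FPKM for Pcna, the sliding clamp of DNA polymerases. The median was 22.5 FPKM, against 11.1 FPKM over all tested genes, and 29 of 40 lay above the latter. Following Pcna in the order of FPKM were Mcm7, a helicase subunit, Rrm2, the regulatory subunit of ribonucleotide reductase, and Cdc20, an activator of the APC/C. The highest values of the remaining roles were those of Cdk1 and Ccna2 among the cyclins and their kinase, Foxm1 and E2f1 among the transcription factors, and Cenpa, the centromeric histone H3, and Tpx2, a spindle factor. In the control tumors, only 1 of the 39 pairs of neighbors in this order did not overlap, so most ranks are not separated by more than the spread between tumors. Reads of 7 of the 40 genes could be shared with an overlapping gene whose reads come to more than 10% of theirs (Mcm7, Gins2, Ccne2, Ccna2, Cdc20, Kif20a and Nusap1), and the strand setting of the counting was not given in the sources used here, so the values of these 7 are uncertain.

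Mki67 encodes Ki-67, the protein most used in pathology to mark dividing cells (chr7:135689784-135716361 on GRCm38, minus strand). It was at 142, 129, 206 and 171 CPM in control replicates 1 to 4, at 180, 318, 68.9 and 229 CPM in MSU-42011 replicates 1 to 4, and at 161, 280, 197 and 204 CPM in bexarotene replicates 1 to 4. The highest and the lowest of the 12 tumors were both MSU-42011 tumors, replicates 2 and 3, which differed 4.62-fold, and the 3 groups overlapped. Means were 162 ± 34 CPM in control, 199 ± 104 CPM in MSU-42011 and 211 ± 50.2 CPM in bexarotene tumors (SD, n = 4 each). The log2 fold change was 0.295 ± 0.351 (SE) for MSU-42011 against control and 0.376 ± 0.352 (SE) for bexarotene against control, and neither passed the test (adjusted p = 1 and 0.912, edgeR's quasi-likelihood test with Benjamini-Hochberg adjustment).

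Top2a, the topoisomerase that untangles sister chromatids, was at 59.4, 48, 71.7 and 72.1 CPM in control, 71.2, 91.7, 36 and 83.9 CPM in MSU-42011 and 58.1, 67.3, 79.4 and 65 CPM in bexarotene tumors. Here too the MSU-42011 group held both extremes, and the groups overlapped. Its log2 fold change was 0.171 ± 0.241 (SE) with MSU-42011 (adjusted p = 1) and 0.103 ± 0.241 (SE) with bexarotene (adjusted p = 0.963).

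**Figure D1:**
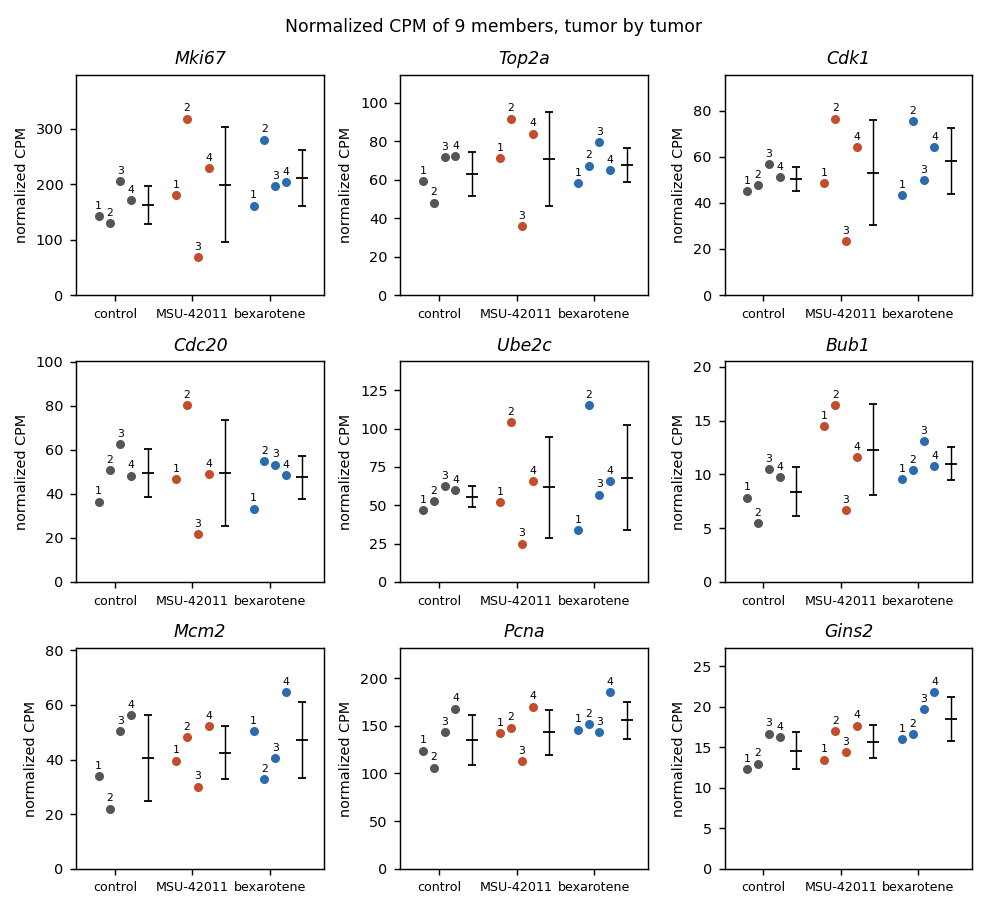
Normalized CPM (y axis, from 0) of 9 of the 40 genes in each tumor, by diet group (x axis). Numbers beside the points are replicate numbers, and the bar beside each group is the mean ± SD of 4 tumors; for Mki67, MSU-42011 replicate 2 (318 CPM) and replicate 3 (68.9 CPM) are the highest and lowest of all 12 tumors.

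No difference between MSU-42011 and control tumors passed the test in any of the 40 genes. In this comparison 0 of 40 had an adjusted p under 0.05 and 0 of 40 an unadjusted p under 0.05 by edgeR's quasi-likelihood test, and DESeq2 and limma also called 0 of 40. The background by edgeR was as low: of all tested genes 0% passed the adjusted threshold, and 1.99% had an unadjusted p under 0.05. By DESeq2, 1 of the 29576 genes with an adjusted p passed the adjusted threshold. The groups did not overlap in 0 of 40 genes in either direction, against 1.16% of all tested genes for higher and 0.806% for lower values with MSU-42011. The 95% interval of the fold change lay within 2-fold in both directions for 37 of 40 genes, so changes of 2-fold or more lie outside the interval for these 37.

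The direction of the fold changes was mostly upward but rested on single tumors. With MSU-42011, 35 of 40 genes had a log2 fold change above 0, with a median of 0.121, against 50.3% of all tested genes, with a median of 0.00155. By role, the counts above 0 were 10 of 13 replication genes (median 0.0369) and 14 of 15 mitosis genes (median 0.154). Without MSU-42011 replicate 2 the count above 0 fell from 35 to 12 of 40 (against 49.3% of all tested genes). The median then turned to −0.068. Without MSU-42011 replicate 3 the count was 39 of 40 (against 48.8% of all tested genes) and the median was 0.324.

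The smallest p with MSU-42011 was that of Bub1, a kinase of the spindle assembly checkpoint. Bub1 was at 7.83, 5.44, 10.5 and 9.74 CPM in control tumors, 14.5, 16.4, 6.66 and 11.6 CPM in MSU-42011 tumors and 9.56, 10.4, 13.1 and 10.8 CPM in bexarotene tumors. Of the MSU-42011 tumors 3 lay above every control tumor and replicate 3 lay among them. The log2 fold change was 0.549 (95% interval −0.058 to 1.16, adjusted p = 1 by edgeR's quasi-likelihood test, unadjusted p = 0.0723), and an exact two-sided permutation test of 4 against 4 tumors, which cannot go below 0.0286, gave p = 0.2. Next were Kif11, the kinesin that pushes spindle poles apart, with a log2 fold change of 0.263 ± 0.223 (SE), and Bub1b, which encodes the checkpoint protein BUBR1, with 0.234 ± 0.229 (SE); the adjusted p by edgeR was 1 for both.

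Leaving out single MSU-42011 tumors moved these values in both directions. Without MSU-42011 replicate 2 the log2 fold changes of Bub1, Kif11 and Bub1b were 0.379, 0.159 and 0.127, and those of Mki67 and Top2a were −0.0263 and 0.0207. Without MSU-42011 replicate 3, Bub1, Kif11 and Bub1b had log2 fold changes of 0.752, 0.458 and 0.438, Mki67 had 0.579 and Top2a 0.389. In the fit without replicate 3, 7 of 40 genes had an unadjusted p under 0.05 and 0 of 40 an adjusted p under 0.05. All 7 were markers or mitosis genes and higher with MSU-42011. Of all tested genes, 1.7% were higher at that unadjusted limit. Replicate 3 was the lowest of all tumors for 27 of the 40 genes. Leaving it out raises the mean of the MSU-42011 group for those 27. It also lowers the median SD of that group over the 40 genes, from 0.541 to 0.25. The count of 7 follows in part from that. Many of the 40 genes vary together across tumors, so 7 of 40 against 1.7% is not a test of enrichment.

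With bexarotene, too, no difference from control passed the test. By edgeR's quasi-likelihood test 0 of 40 had an adjusted p under 0.05 (0% of all tested genes) and 0 of 40 an unadjusted p under 0.05 (6.44%). DESeq2 and limma called 0 of 40 by adjusted p, and DESeq2 called 6 of the 16872 genes with an adjusted p. The groups did not overlap in 0 of 40 genes (1.14% of all tested genes for higher and 0.89% for lower values). The 95% intervals lay within 2-fold for 36 of 40 genes. The log2 fold change was above 0 in 37 of 40 genes, with a median of 0.151, against 55.3% of all tested genes, with a median of 0.0296. These comparisons share the 4 control tumors, so their directions are not independent. Without control replicate 2 the count above 0 was 25 of 40 (against 55.9% of all tested genes) and the median was 0.0686. Without control replicate 3 the median was 0.27.

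The gene with the smallest p in the bexarotene comparison was Gins2, a subunit of the GINS complex of the replicative helicase. It was at 12.3, 13, 16.7 and 16.3 CPM in control, 13.5, 17, 14.4 and 17.7 CPM in MSU-42011, and 16, 16.6, 19.7 and 21.8 CPM in bexarotene tumors. All 4 bexarotene tumors lay above 2 of the control tumors, and the other two control tumors lay among them. The log2 fold change was 0.342 (95% interval −0.0105 to 0.694, adjusted p = 0.786 by edgeR's quasi-likelihood test, unadjusted p = 0.0561; exact permutation p = 0.143). Reads of Gins2 could be shared with Gse1, which overlaps it. Next by p were Bub1, with a log2 fold change of 0.387 ± 0.279 (SE) and an adjusted p of 0.882, and Pcna, with 0.21 ± 0.16 (SE) and an adjusted p of 0.89, both by edgeR. Pcna was at 124, 106, 143 and 168 CPM in control tumors and at 146, 152, 143 and 185 CPM in bexarotene tumors, and the groups overlapped. Leaving out a tumor changed the log2 fold change of Pcna to 0.105 (control replicate 2), 0.113 (bexarotene replicate 4) or 0.333 (control replicate 4).

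The 2 agonists were compared at the same dose and duration, and no difference passed the test in any of the 40 genes. By edgeR's quasi-likelihood test 0 of 40 had an adjusted p under 0.05 (0% of all tested genes) and 0 of 40 an unadjusted p under 0.05 (3.95%). DESeq2 and limma called 0 of 40 by adjusted p, and DESeq2 called 25 of the 16309 genes with an adjusted p. The groups did not overlap in 0 of 40 genes (0.632% of all tested genes for higher and 0.535% for lower values with MSU-42011). The 95% interval of the ratio of MSU-42011 to bexarotene lay within 2-fold for all 40 genes, and the bound farthest from 0 was 0.997 on the log2 scale. A p above the threshold does not show that the compounds act alike within these intervals. For Mki67 the log2 difference was −0.0805 (95% interval −0.844 to 0.683) and for Top2a 0.0681 (−0.456 to 0.592).

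The smallest p values of this pair were those of replication genes, all lower with MSU-42011 than with bexarotene. Gins2 had a log2 difference of −0.239 (95% interval −0.591 to 0.113, unadjusted p = 0.165 and adjusted p = 0.997 by edgeR). Cdt1, a licensing factor, was at 14.2, 18.4, 12.6 and 21 CPM in MSU-42011 and at 20, 17, 18.5 and 22.2 CPM in bexarotene tumors, with a log2 difference of −0.229 ± 0.204 (SE). Cdc6 was at 7.2, 9.88, 5.42 and 10.1 CPM in MSU-42011 and at 11.4, 7.97, 7.12 and 13.7 CPM in bexarotene tumors, with −0.301 ± 0.305 (SE). The groups overlapped for all 3, and the adjusted p by edgeR was 0.997 for both licensing factors. Of the 40 genes 16 had a log2 difference above 0 (45.1% of all tested genes) and the median was −0.044. The count was 3 without MSU-42011 replicate 2 (43.7% of all tested genes), 10 without replicate 4 (45.6%) and 32 without replicate 3 (46.5%). The edgeR test of any difference among the 3 groups called 0 of 40 by adjusted p (0% of all tested genes) and 0 of 40 by unadjusted p (4.24%). Its smallest adjusted p for the 40 genes was 0.998. By DESeq2, 5 of the 16866 genes with an adjusted p were called in this test.

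**Figure D2:**
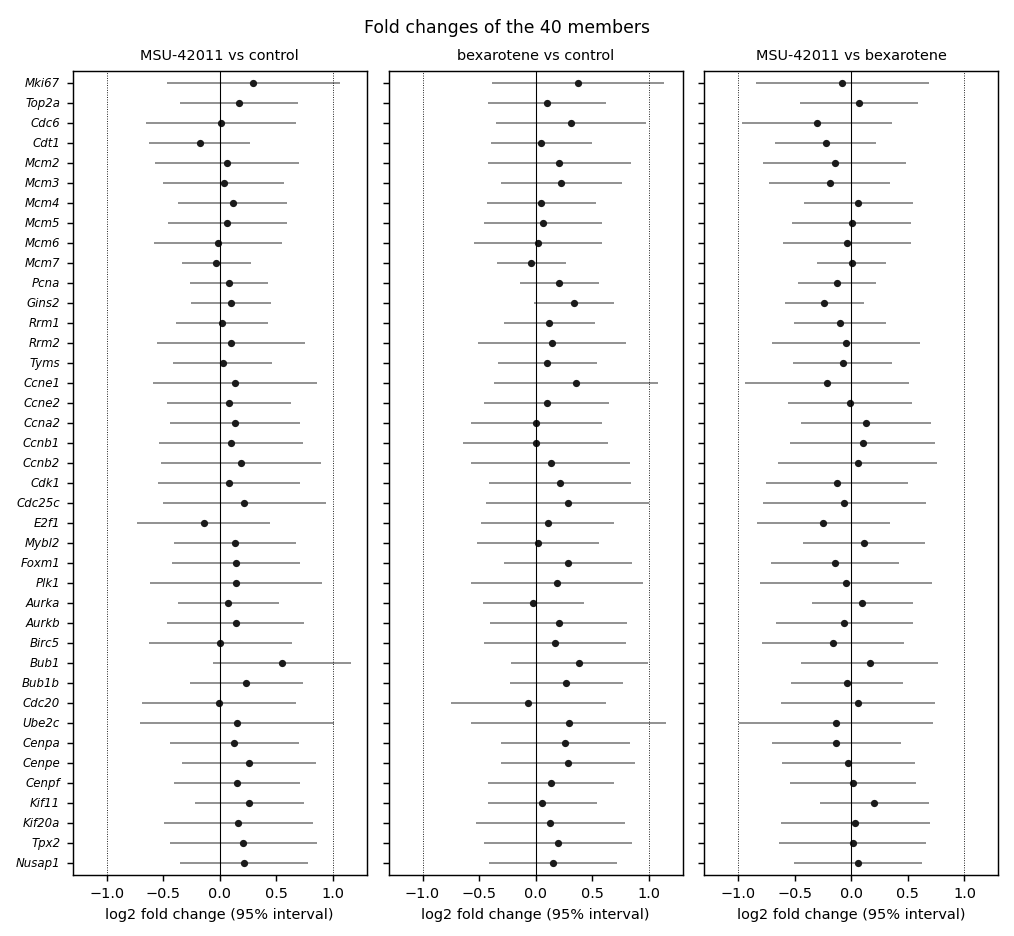
Log2 fold change (x axis) of each of the 40 genes (y axis) for MSU-42011 against control, bexarotene against control, and MSU-42011 against bexarotene, as point estimates with 95% intervals from edgeR's quasi-likelihood fit. All 40 intervals in each panel cross the solid line at 0; dotted lines mark a 2-fold change, and in the third panel no interval reaches them.

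Many of the 40 genes were highest or lowest in the same tumors. MSU-42011 replicate 2 was the highest of the 12 tumors for 24 of 40 genes (60%), against 9.22% of all tested genes. MSU-42011 replicate 3 was the lowest for 27 of 40 genes (67.5%), against 13.1% of all tested genes. For the 15 mitosis genes, replicate 2 was the highest for 12 and replicate 3 the lowest for 14. These 2 tumors were fed the same diet, so the contrast between them is a contrast within a group.

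Examples of the cyclins and of the mitosis genes show the size of that contrast. Cdk1, the kinase that drives entry to mitosis, was at 45, 47.6, 56.9 and 51.1 CPM in control tumors, at 48.4, 76.5, 23.5 and 64.2 CPM in MSU-42011 tumors, and at 43.2, 75.3, 50 and 64.3 CPM in bexarotene tumors. Cdc20 was at 36.5, 50.9, 62.8 and 48.3 CPM in control tumors, 46.7, 80.2, 21.6 and 49.1 CPM in MSU-42011 tumors and 33.3, 54.9, 53.3 and 48.6 CPM in bexarotene tumors. In both genes MSU-42011 replicate 2 was the highest and replicate 3 the lowest tumor, 3.26-fold apart for Cdk1 and 3.71-fold for Cdc20. Ube2c, the ubiquitin-conjugating enzyme of the APC/C, was at 52.1, 104, 24.9 and 65.8 CPM in MSU-42011 tumors, and its highest tumor was bexarotene replicate 2 at 115 CPM. Ccnb1 and Ccnb2, the B-type cyclins that pair with CDK1, differed 3.64-fold and 4.14-fold between MSU-42011 replicates 2 and 3.

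For the replication genes, other tumors were often the highest or lowest, and a difference between roles was not tested. Mcm2, a helicase subunit, was at 33.8, 22, 50.5 and 56.3 CPM in control, 39.6, 48.2, 30.1 and 52.1 CPM in MSU-42011, and 50.5, 32.7, 40.5 and 64.6 CPM in bexarotene tumors. Its highest tumor was bexarotene replicate 4 and its lowest control replicate 2, and the groups overlapped. Of the 13 replication genes, 7 were highest in bexarotene replicate 4 (9.77% of all tested genes) and 3 in MSU-42011 replicate 2 (9.22%). Their lowest tumors were spread over control replicate 2, MSU-42011 replicate 3 and bexarotene replicate 2, with 4 genes each, and control replicate 1 with 1 gene. In the same order, these tumors were the lowest for 9.28%, 13.1%, 12.9% and 9.11% of all tested genes. Mcm7, the most abundant of the licensing genes by FPKM, varied least, from 61 to 88 CPM.

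Medians over the genes of a role were also taken. On the log2 scale relative to the control mean, the median over the mitosis genes was −0.216, −0.188, 0.338 and 0.0429 in control tumors, 0.142, 0.685, −0.891 and 0.317 in MSU-42011 tumors, and −0.0758, 0.384, 0.295 and 0.138 in bexarotene tumors. The lowest and the highest tumor differed 2.98-fold. For the replication genes the medians ran from −0.433 (control replicate 2) to 0.456 (bexarotene replicate 4), a 1.85-fold distance, and MSU-42011 replicates 2 and 3 stood at 0.228 and −0.339.

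**Figure D3:**
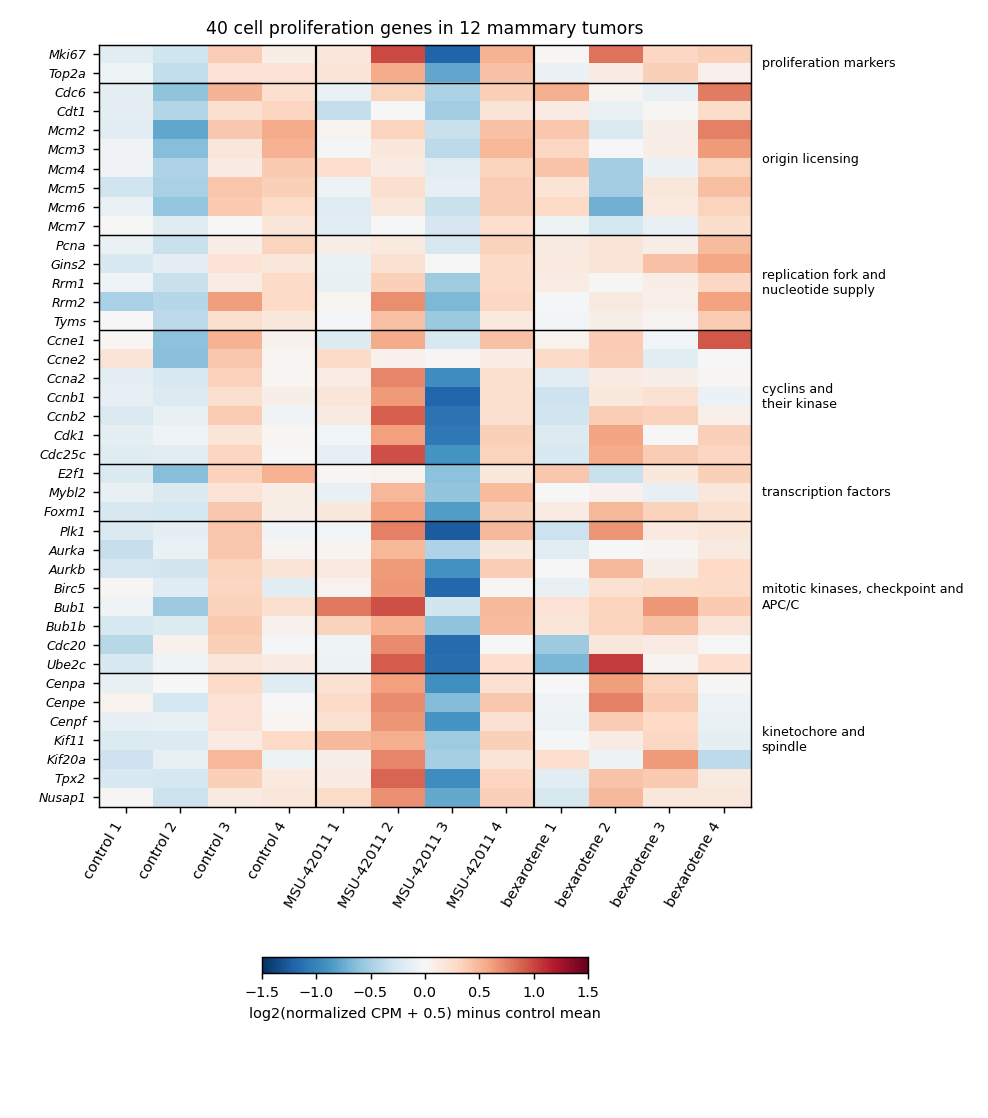
Heat map of the 40 genes (rows, grouped by role) in the 12 tumors (columns, grouped by diet). Color is log2(normalized CPM + 0.5) minus the mean of the 4 control tumors. From Ccna2 down, MSU-42011 replicate 2 is red and replicate 3 blue, except that replicate 2 is near white for E2f1. Both have weaker color in the licensing genes.

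Markers of other cell types stood differently in these 2 tumors. MSU-42011 replicate 3 had the highest sums of its group for fibroblast (541 CPM), endothelial (204 CPM) and macrophage markers (854 CPM), and the lowest sum of all 12 tumors for erythroid genes (65.3 CPM). MSU-42011 replicate 2 had the lowest sums of its group for these 3 lists, at 187, 104 and 337 CPM. Control replicate 1, with 507, 158 and 803 CPM for the same lists, had a median over the mitosis genes of −0.216. In bexarotene replicate 1, with 11500, 445 and 2130 CPM, that median was −0.0758. Control replicate 2 had 112, 79.8 and 891 CPM and a median of −0.188. In the luminal markers MSU-42011 replicates 2 and 3 were alike, at 5730 and 5770 CPM. The part of these cell types in the levels of the 40 genes was not tested.

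The spread between tumors was measured as the SD of log2(CPM + 0.5) within a group. The median SD of the 40 genes was 0.29 in control, 0.541 in MSU-42011 and 0.274 in bexarotene tumors, and that of all tested genes was 0.238, 0.251 and 0.286. For the mitosis genes it was 0.287, 0.66 and 0.272, and for the cyclins with their kinase 0.251, 0.742 and 0.31. The licensing genes had 0.448, 0.326 and 0.416, with the MSU-42011 group lowest. The SD was largest in the MSU-42011 group for 28 of 40 genes (70%), against 26.8% of all tested genes. The larger spread rested on 1 tumor: without MSU-42011 replicate 3 the median SD of that group was 0.25 for the 40 genes and 0.247 for the mitosis genes, and without any other MSU-42011 tumor it was 0.553 to 0.641 for the 40 genes.

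**Figure D4:**
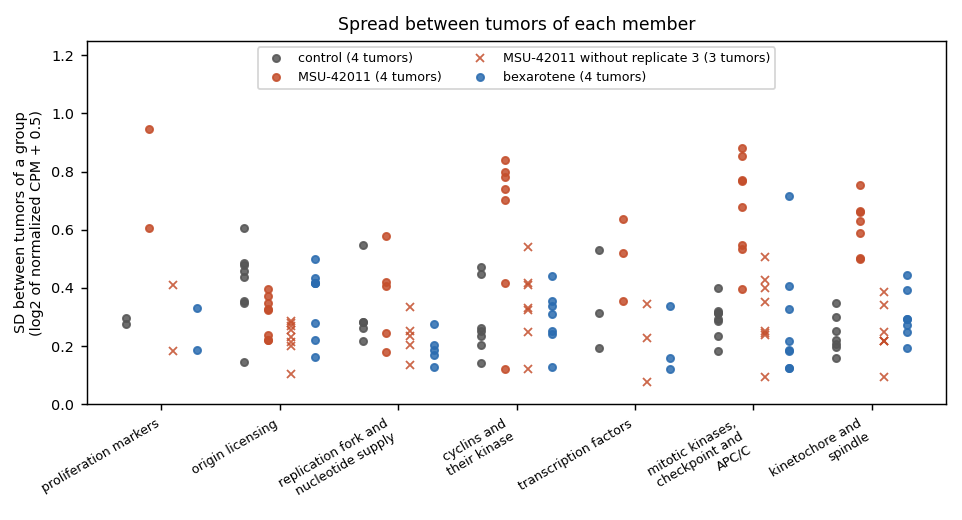
SD between tumors of a group (y axis, log2 of normalized CPM + 0.5) for each of the 40 genes, by role (x axis). Points are genes in the control, MSU-42011 and bexarotene groups of 4 tumors, and crosses are the MSU-42011 group without replicate 3; the median over the 40 genes is 0.541 with that tumor and 0.25 without it.

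The relation of each of the other 39 genes to Mki67 was computed over the 12 tumors, with permutation tests of 100000 resamples and adjustment over the 39. Pearson's r passed at an adjusted p under 0.05 for 28 of 39 genes, Spearman's rho for 28, and the median was 0.863 for r and 0.797 for rho. All 8 mitotic kinase, checkpoint and APC/C genes passed (median r 0.907), as did all 7 kinetochore and spindle genes by Pearson's r (median 0.939; 6 of 7 by Spearman's rho), and 0 of 8 licensing genes passed by either measure (median r 0.408, range 0.168 to 0.591). Relations to Mki67 were also common among other genes: the same test over the 15499 other tested genes gave an unadjusted p under 0.05 for 23% of them, against 30 of the 39 genes (76.9%). With adjustment over all of these genes, 3.67% passed, against 23 of the 39 genes and 0 of the 8 licensing genes. The median r over all of them was 0.00212. A relation past the threshold in one role and not in another is not a test of the difference between roles, which was not tested. All genes of a tumor share 1 library and its normalization.

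The relation was weaker when 2 tumors were left out. Without MSU-42011 replicates 2 and 3, the tumors farthest from the median of Mki67, the median r was 0.656. In that setting 14 of 39 relations passed by Pearson's r (16 by Spearman's rho). These tumors were chosen by their Mki67 values, so leaving them out narrows the range of Mki67, and 10 tumors remain. A lower r and fewer relations past the threshold follow in part from that choice. On deviations from the group means, the median r over 12 tumors was 0.862. Without bexarotene replicate 1 the median r was also 0.862 and 29 of 39 passed, among them 1 of the 8 licensing genes. With tumors left out, the share of all tested genes that passed was not computed.

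**Figure D5:**
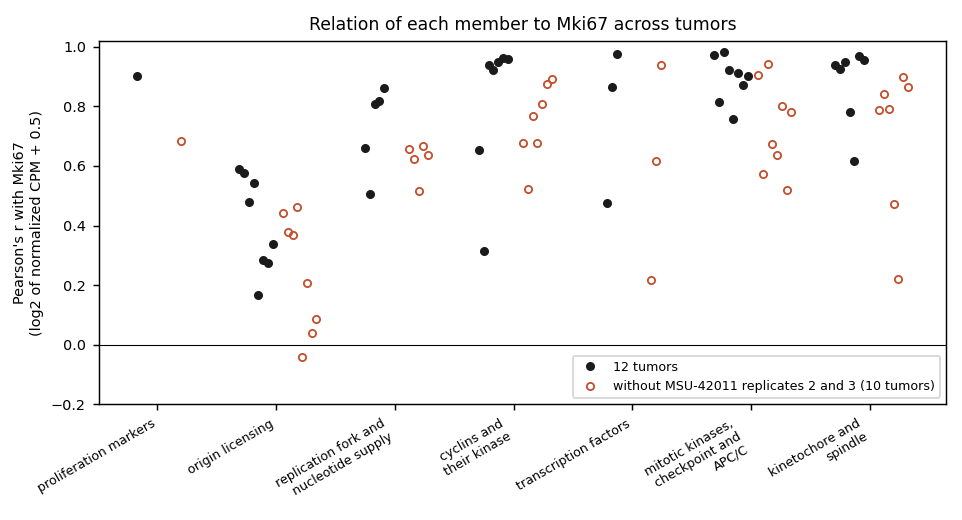
Pearson's r of each gene with Mki67 across tumors (y axis, computed on log2 of normalized CPM + 0.5), by role (x axis). Filled points use 12 tumors and open points the 10 tumors without MSU-42011 replicates 2 and 3. The median over the 39 genes is 0.863 and 0.656. The licensing genes have the lowest median of the roles, 0.408 over 12 tumors, and single genes of other roles, such as Ccne2 (0.315), lie among them.

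Other genes of the cell cycle, taken from lists written from general knowledge, were fitted in the same way. Of 50 other genes of G2 phase and mitosis, 47 had a log2 fold change above 0 with each agonist. The medians were 0.168 for MSU-42011 and 0.192 for bexarotene. Of all tested genes 50.3% and 55.3% were above 0, and both comparisons share the control tumors. By adjusted p, 0 of 50 were called in any comparison (0% of all tested genes). MSU-42011 replicate 3 was the lowest tumor for 42 of the 50 (13.1% of all tested genes) and replicate 2 the highest for 32 (9.22%). At an unadjusted p under 0.05 there was 1 of 50 genes with bexarotene, against 6.44% of all tested genes, and this was Kif18a, a kinesin that aligns chromosomes. It was at 3.92, 3.55, 5.45 and 4.96 CPM in control and at 5.35, 7.25, 7.65 and 6.99 CPM in bexarotene tumors, with a log2 fold change of 0.606 ± 0.226 (SE, adjusted p = 0.762 by edgeR). Smc2, a condensin subunit, had 0.317 ± 0.157 (SE) with MSU-42011 and Depdc1a 0.496 ± 0.278 (SE) with bexarotene, neither past the test.

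Of 36 other S phase genes, 22 had a log2 fold change above 0 with MSU-42011 (median 0.0215) and 31 with bexarotene (median 0.155). The shares of all tested genes above 0 were 50.3% and 55.3%. By edgeR, 0 of 36 had an adjusted p under 0.05 in any comparison (0% of all tested genes). At an unadjusted p under 0.05 there were also 0 of 36. Among all tested genes, 1.99% lay under that limit with MSU-42011, 6.44% with bexarotene and 3.95% in the pair of agonists. Against bexarotene, 7 of 36 were above 0 with MSU-42011 (median −0.09), and 45.1% of all tested genes were. The smallest p of this list were those of Pole, the catalytic subunit of the leading strand polymerase, with 0.442 ± 0.253 (SE) for bexarotene against control, of Gins1, with −0.441 ± 0.253 (SE) for MSU-42011 against bexarotene, and of Pold1, the catalytic subunit of the lagging strand polymerase, with −0.315 ± 0.19 (SE) for the same pair. None of the 3 passed the test.

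In 32 genes of G1 control, the RB and E2F families and the DREAM complex, 0 were called by adjusted p (0% of all tested genes). The number at an unadjusted p under 0.05 was 1 of 32 for MSU-42011 against control (1.99% of all tested genes), 2 of 32 for bexarotene against control (6.44%) and 1 of 32 for MSU-42011 against bexarotene (3.95%), which are shares near those of all genes. At an unadjusted p under 0.05 were E2f6, higher with MSU-42011 and named here after its value was seen, Cdkn2b, higher with bexarotene, Rb1, lower with bexarotene, and Ccnd2, lower with MSU-42011 than with bexarotene. Cdkn2b, an inhibitor of CDK4 and CDK6, was at 0.534, 0.757, 0.962 and 0.646 CPM in control tumors and at 12.8, 2.48, 0.823 and 0.429 CPM in bexarotene tumors, with a log2 fold change of 2.52 ± 0.884 (SE, adjusted p = 0.762 by edgeR). Ccnd2, a D-type cyclin, was at 40.3 CPM in bexarotene replicate 1 and at 2.51 to 7.77 CPM in the other 11 tumors, and its log2 difference between MSU-42011 and bexarotene was −1.73 ± 0.704 (SE). Both were highest in the tumor with the many fibroblast reads, and without bexarotene replicate 1 these values were 0.785 for Cdkn2b and −0.161 for Ccnd2. Rb1, the retinoblastoma gene, was at 72.7, 117, 35.9 and 53.3 CPM in control and at 57.4, 38.2, 44.3 and 36.5 CPM in bexarotene tumors, and the groups overlapped (log2 fold change −0.66 ± 0.293 (SE), adjusted p = 0.766 by edgeR). Without control replicate 2 the log2 fold change of Rb1 was −0.296, and without control replicate 3 it was −0.878.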

How the data were processed

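Poly(A) RNA from 12 tumors (3 groups of 4, assigned by their labels) was sequenced. The submitters' processing notes name STAR 2.6.1d, featureCounts 1.5.0-p3 and DESeq2. The genome build is not given in the sources used here, and 98.3% of the genes shared with GENCODE M21 have its GRCm38 coordinates. The authors deposited raw read counts per gene, without normalization, and FPKM values, scaled by them to library size and gene length.

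Counts were normalized by TMM, filtered by filterByExpr (defaults) and tested with edgeR 4.0.16's quasi-likelihood F test (R 4.3.3) in 1 model of 3 group means, with Benjamini-Hochberg adjustment over 15504 genes. Limma 3.58.1, DESeq2 1.42.0, other scalings and filters, the replicate number as a block and each tumor left out were alternatives. Exact and permutation tests were two-sided (scipy 1.17.1). The fits were tested on simulated data. Promoter windows were searched for 4 motifs on both strands. The main tests used all 12 tumors.

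Named genes were Mki67, Top2a, the 2 most abundant genes by FPKM of each role, the 3 with the smallest p in each test, and 3 genes of each other list. Members and lists were chosen with earlier results of these data known. A sequencing batch was not given.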

Additional observations from a re-analysis of the deposited data

Results flagged for a closer look

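Medians over the genes of each role and the levels of the named genes were checked for a tumor far from the other 3 of its group, in 81 groups of 4 tumors. One was found: for the replication fork and nucleotide supply genes, the median in bexarotene replicate 4 was 0.472 on the log2 scale relative to the control mean, and the other 3 bexarotene tumors stood at 0.107, 0.137 and 0.0959. Its gap to the nearest tumor was 0.892 of the range of the group, above the limit of Dixon's test for 4 tumors. Chance gives such a gap in about 1 of 20 groups, so 1 flag in 81 groups is no more than chance gives. Bexarotene replicate 4 was also the highest of the 12 tumors for 7 of the 13 replication genes, which include the genes of this median. It was the highest for 14 of the 36 other S phase genes, and for 9.77% of all tested genes.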

How the results depend on the processing

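The count of genes with an adjusted p under 0.05 stayed at 0 of 40 in each comparison and in the test of the 3 groups under all 18 alternatives. No other scaling, filter or tool changed the direction of a median over the 40 genes. For MSU-42011 against control, leaving out 1 tumor gave 0 to 7 genes at an unadjusted p under 0.05, 12 to 39 genes above 0 and medians of −0.0676 to 0.324. For bexarotene against control it gave 0 to 1, 25 to 39 and 0.0686 to 0.27. For MSU-42011 against bexarotene it gave 0 to 1, 3 to 32 and −0.218 to 0.156, and for the 3 groups 0 to 2 genes. The lowest values for MSU-42011 came without its replicate 2 and the highest without its replicate 3. For bexarotene against control, 1 gene (Gins2) had an unadjusted p under 0.05 with limma at either pseudocount and with the replicate block. Of the fold changes printed, those of Mki67 for MSU-42011 against control (−0.0263 to 0.579) and against bexarotene (−0.401 to 0.204), and of Top2a for bexarotene against control (−0.00989 to 0.178) and for the pair of agonists (−0.0811 to 0.287) changed sign when 1 tumor was left out. Of 1566 values of the 29 named genes under the alternatives, 104 had the other sign and 0 were called. Relations to Mki67 past the threshold numbered 14 without the 2 tumors farthest from its median, 29 without bexarotene replicate 1, and 23 with adjustment over all tested genes. The first and the last of these settings and the SDs without 1 tumor were added after the data were seen. Deviations from the group means correlated at a median r of 0.0645 for tumors with the same replicate number (range −0.388 to 0.38). For different numbers the median was −0.0264 (−0.38 to 0.393). Of 12 tumors 5 correlated best with a tumor of their own number. These values do not exclude a pairing or a shared batch. The lowest count of any of the 40 genes in a tumor was 61 reads, for Ccne1.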
